A study of Mus musculus with 2 samples.

Results

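Butyrate, lactate and related small metabolites reach cells of the gut wall through cell-surface receptors and through proton-coupled transporters, and 7 genes of this system were followed here in single cells of the mouse colon. They were Hcar2, Ffar2, Gpr35 and Gpr84 (receptors), Slc16a1 and Slc16a3 (transporters) and Hdac3 (an enzyme inside the cell), chosen by symbol from the 31053 genes of both count matrices. All 7 symbols were found once in each matrix.

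Cells were taken from colonic lamina propria, the tissue layer beneath the epithelium of the gut, of male C57BL/6 mice aged 6 to 8 weeks and kept free of specific pathogens. In lncly6c-deficient mice all of lncly6c (1700016P04Rik), which encodes a long noncoding RNA, had been removed with CRISPR-Cas9 and a pair of cuts flanking its exons, and wild-type mice carried no stated change. Each group was 1 droplet library made with the Single Cell 3' kit V3, with no replicate, and how many mice were pooled is not given in the sources used here. The study asked how lncly6c affects macrophage differentiation. File names and labels disagree on which library is which. Groups here follow the labels, and if the file names were right every difference between the libraries below would turn round, while comparisons of classes within a library would keep their direction. The deleted gene had 0 UMIs (unique molecular identifiers, each standing for 1 captured RNA molecule) in either library, so it gives no check on the labels.

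The deficient library held 6133 barcodes with 54773076 UMIs and the wild-type library 3020 barcodes with 23384895 UMIs, and 7 barcodes were present in both. After removal of barcodes under 200 genes, under 500 UMIs or above 20% mitochondrial UMIs, 5890 deficient and 2610 wild-type cells remained, with medians of 7849 and 6205 UMIs. Cells were placed in classes by marker genes, and 25.7% of deficient and 29.9% of wild-type cells stayed without a class. The ungated cells had medians of 7803 UMIs in the deficient and 1961 UMIs in the wild-type library. Class names rest on RNA alone and mean "like" the named cell. In both libraries 9 classes held 50 cells or more, and these had at least 3 of their own markers among their 10 leading genes, and none had more markers of another class there. Levels are given as CPM, the UMIs of a gene scaled to 1000000 UMIs of the class, with exact Poisson 95% intervals, which cover counting error only. A difference between the libraries is called higher or lower where the ratio, deficient over wild type, exceeds 1.5-fold in either direction, its 95% counting interval excludes 0 on the log2 scale, and the gene had at least 50 UMIs over both libraries. With 1 library a group there is no test, and genotype and library cannot be told apart.

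As background, butyrate is made by gut bacteria from dietary fibre. HCAR2 (GPR109A) is a Gi-coupled receptor for niacin, beta-hydroxybutyrate and butyrate, and FFAR2 (GPR43) is a receptor for acetate, propionate and butyrate. GPR35 responds to kynurenic acid and other ligands, and GPR84 responds to medium-chain fatty acids. SLC16A1 (MCT1) carries butyrate, pyruvate and lactate in either direction, and SLC16A3 (MCT4) is the low-affinity lactate carrier of cells with strong glycolysis. HDAC3 removes acetyl groups from histones within the NCoR and SMRT corepressor complexes, and butyrate inhibits it.

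In the mm10 annotation Hcar2 (ENSMUSG00000045502) lies on chromosome 5 from 123863570 to 123865499 on the minus strand, and Ffar2 (ENSMUSG00000051314) on chromosome 7 from 30818348 to 30823775 on the minus strand. Gpr35 (ENSMUSG00000026271) lies on chromosome 1 from 92950865 to 92986391 on the plus strand, and Gpr84 (ENSMUSG00000063234) on chromosome 15 from 103308235 to 103310612 on the minus strand. Slc16a1 (ENSMUSG00000032902) spans 104638668 to 104658462 of chromosome 3 and Slc16a3 (ENSMUSG00000025161) spans 120948480 to 120960868 of chromosome 11, both on the plus strand. All 7, Hdac3 (ENSMUSG00000024454) included, are annotated as protein-coding.

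The 250 bases before 1 RefSeq transcription start of each transporter are shown because these genes belong to 1 family and yet were high in different classes. They are RefSeq sequences on GRCm38.p6, plus strand, from chr11:120948817-120949066 and chr3:104638414-104638663. The RefSeq start used for Slc16a3 lies 587 bases downstream of the annotated gene start given above, so its window lies within that gene span. Capitals mark ACGTG on either strand (CACGT on the other), a letter run found in hypoxia response elements, and human SLC16A3 is known as a target of the hypoxia factor HIF-1.
Slc16a3: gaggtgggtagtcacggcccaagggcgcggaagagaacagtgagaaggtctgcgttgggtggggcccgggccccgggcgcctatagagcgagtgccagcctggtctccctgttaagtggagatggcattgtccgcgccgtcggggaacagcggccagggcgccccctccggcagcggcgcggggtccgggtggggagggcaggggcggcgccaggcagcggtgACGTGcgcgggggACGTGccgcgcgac
Slc16a1: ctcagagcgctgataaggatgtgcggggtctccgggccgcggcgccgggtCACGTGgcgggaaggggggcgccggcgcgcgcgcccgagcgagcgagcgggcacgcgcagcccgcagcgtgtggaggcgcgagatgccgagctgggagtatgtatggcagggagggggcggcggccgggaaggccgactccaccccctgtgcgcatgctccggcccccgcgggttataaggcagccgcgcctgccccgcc
Slc16a3 holds ACGTG at 27 and at 14 bases before this RefSeq start. Slc16a1 holds a single CACGTG about 200 bases before its start, which is the E-box and contains ACGTG on both strands. Of 32536 distinct RefSeq windows of this length, 16.7% hold ACGTG and 6.04% hold CACGTG. Neither transporter's window holds TTGCNNAA, a pattern of C/EBP sites that is present in 9.57% of windows. These matches are descriptions of letters, and nothing about binding was measured. Of the 7 genes, 5 had an entry in the promoter table; Hcar2 and Hdac3 are only named.

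Hcar2 was a neutrophil gene with a second, lower tier in monocytes. In neutrophils its level was 922 CPM (95% interval 845 to 1005) in the deficient library and 1971 CPM (1887 to 2058) in the wild-type library, from 518 UMIs in 202 cells and 2075 UMIs in 333 cells. Ly6c-low monocytes followed with 45.4 and 99.3 CPM, and Ly6c-high monocytes with 34.7 and 84.0 CPM, deficient and wild type in each pair. Macrophages had 22.5 and 23.8 CPM, and dendritic cells were lower still, at 7.97 and 12.9 CPM in the cDC2 class. The drop from neutrophils to any other class was far outside the counting intervals, while both monocyte classes overlapped in either library.

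B and T cells held few Hcar2 UMIs. Hcar2 had 7 UMIs in 565 deficient and 1 UMI in 85 wild-type B cells, and 1 UMI in 273 deficient and 0 UMIs in 86 wild-type T cells. Fibroblasts had 6.72 CPM in deficient and 8.15 CPM in wild-type cells, from 15 and 2 UMIs. That deficient value is near the 7.97 CPM of the deficient cDC2 class. A UMI was seen in 0.366% of deficient T cells at a median depth of 4996 UMIs, against 61.9% of deficient neutrophils at a median of only 2054 UMIs. After every cell was thinned to 1000 UMIs, 57.6% of 158 deficient neutrophils and 72.4% of 297 wild-type neutrophils still carried an Hcar2 UMI, with 44 and 36 shallower cells left out.

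**Figure D1:**
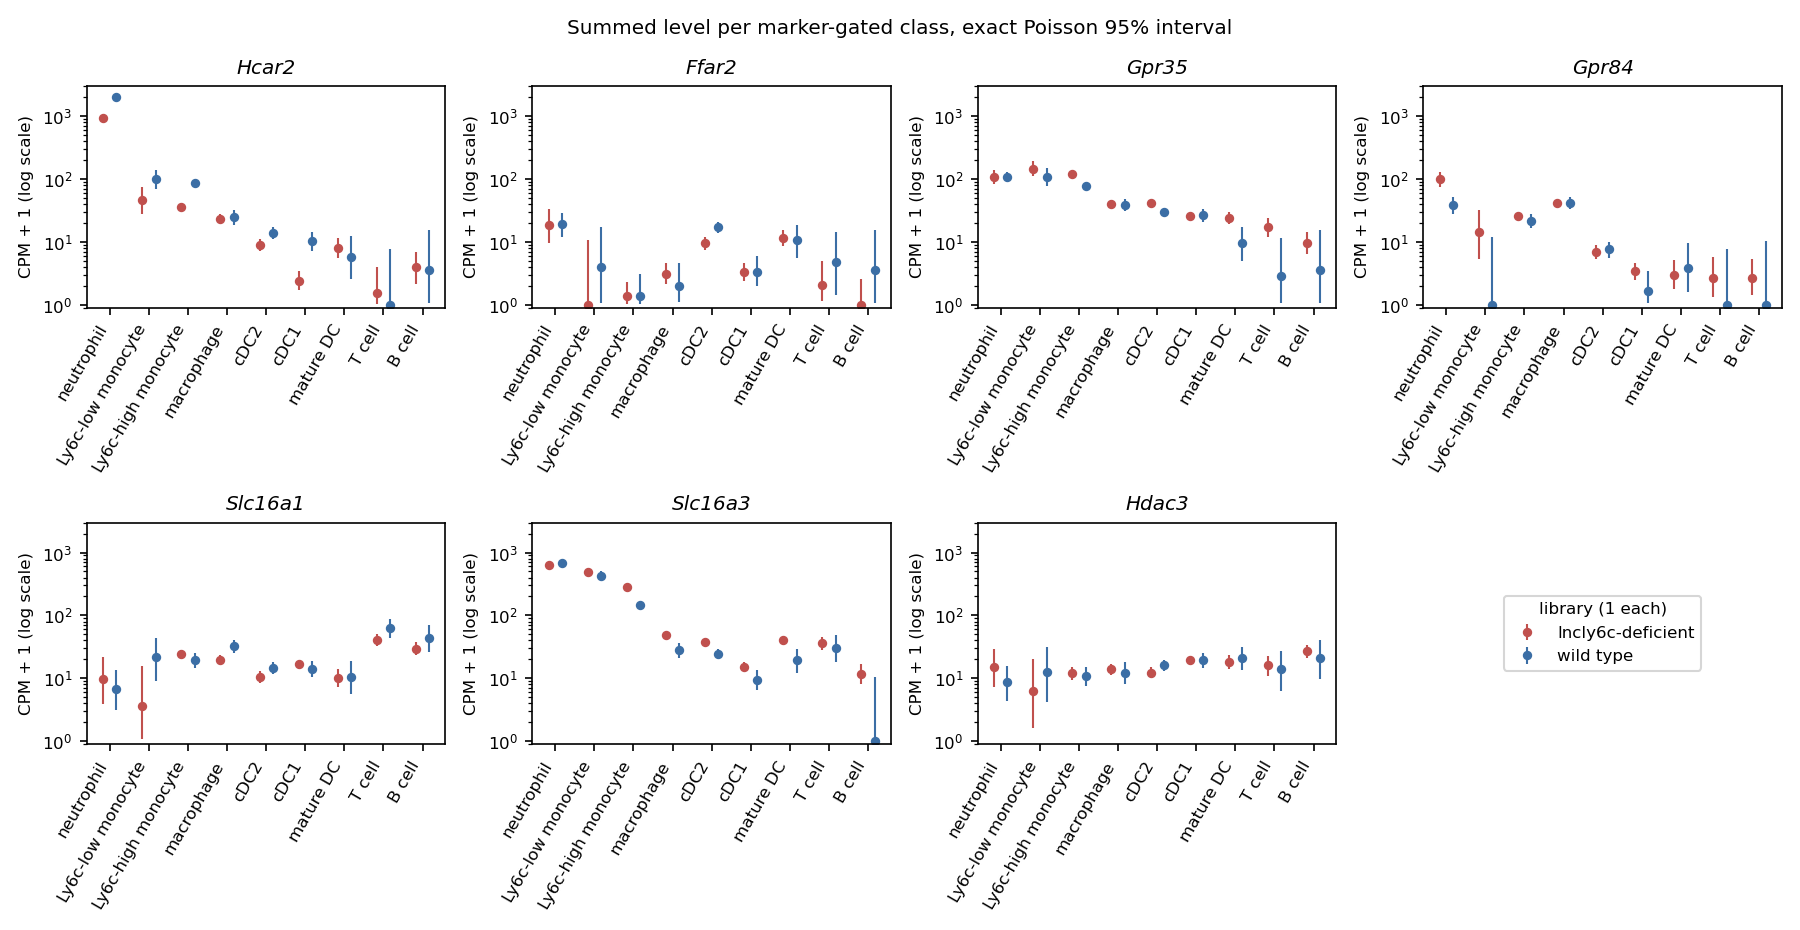
Levels of the 7 genes in 9 marker-gated classes, as CPM + 1 on a log axis, for the lncly6c-deficient (red, left) and wild-type (blue, right) library. Points are sums over the cells of a class and bars are exact Poisson 95% intervals. Hcar2 and Slc16a3 stepped down from neutrophils through monocytes to macrophages, Gpr84 was high in neutrophils and macrophages, and Hdac3 stayed between 5.34 and 25.8 CPM in all 9 classes.

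Hcar2 was lower in the deficient library in 4 of the 5 classes where it was measured. In Ly6c-high monocytes the log2 ratio was -1.27 (95% counting interval -1.56 to -0.99), from 191 UMIs in 715 deficient and 222 UMIs in 288 wild-type cells. In Ly6c-low monocytes it was -1.13 (-2.06 to -0.25), in neutrophils -1.10 (-1.24 to -0.96) and in the cDC2 class -0.70 (-1.22 to -0.18). Macrophages had 139 UMIs in 632 deficient and 47 UMIs in 207 wild-type cells and a log2 ratio of -0.08 (-0.57 to 0.43), whose interval lies outside that of the Ly6c-high monocytes. The background shares of genes called lower were 6.14% in Ly6c-high monocytes, 7.72% in Ly6c-low monocytes, 8.29% in neutrophils, 4.14% in the cDC2 class and 4.55% in macrophages.

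The difference was spread over many cells. Of deficient neutrophils 38.1% had no Hcar2 UMI and 16.3% had 6 or more, against 21.0% and 42.6% of wild-type neutrophils. The median was 1.5 UMIs per deficient and 4 UMIs per wild-type neutrophil, with maxima of 17 and 41. These values count all 202 deficient and 333 wild-type gated neutrophils. Their largest graph cluster, of 144 and 271 cells, held 505 of 518 deficient and 2057 of 2075 wild-type Hcar2 UMIs. Within it Hcar2 had 1198 CPM in deficient and 2333 CPM in wild-type cells, a log2 ratio of -0.96 (-1.10 to -0.82). In Ly6c-high monocytes 14.4% of deficient cells and 34.0% of wild-type cells carried a UMI at median depths of 7765 and 9933 UMIs. Thinned to 1000 UMIs, these shares were 1.97% (1.08% to 3.28%) and 4.95% (2.73% to 8.16%). They rest on 14 cells each, and their intervals overlap.

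**Figure D2:**
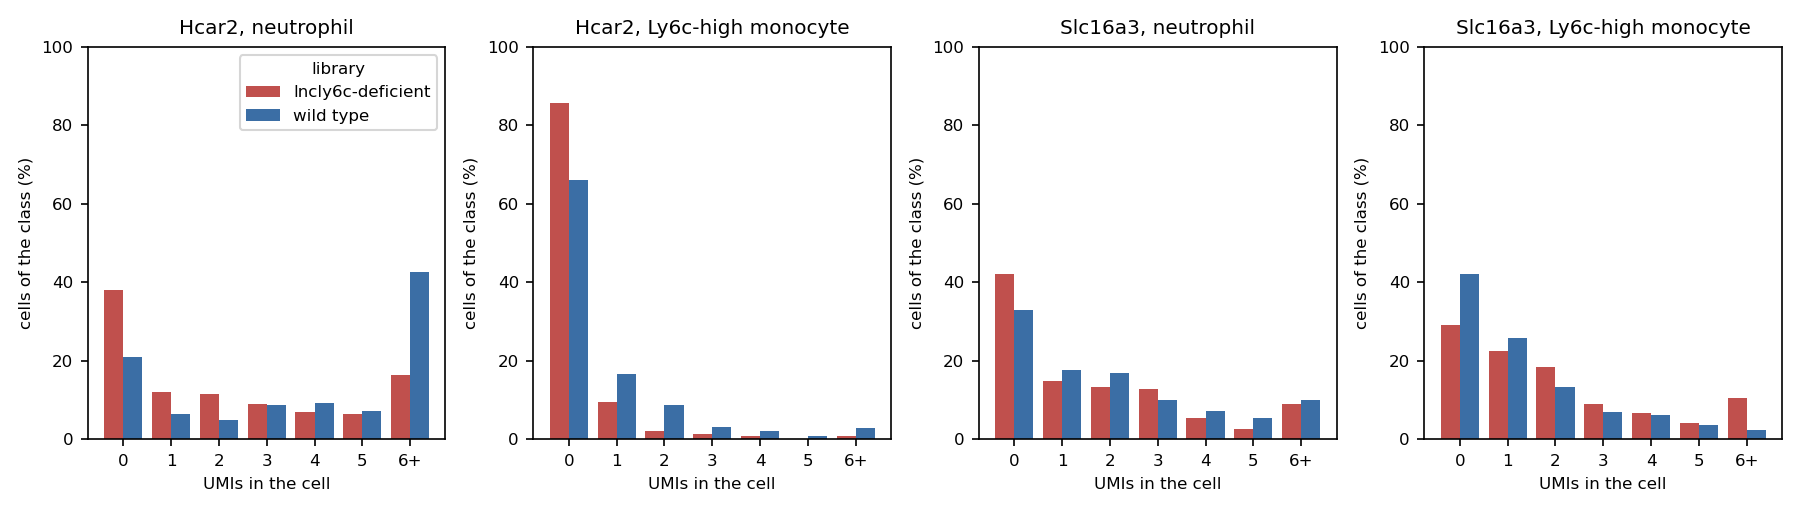
Share of cells (percent, vertical axis) by the number of UMIs of Hcar2 or Slc16a3 in the cell (horizontal axis), in neutrophils and Ly6c-high monocytes, for the deficient (red, left) and wild-type (blue, right) library. For Hcar2, 42.6% of wild-type neutrophils had 6 or more UMIs against 16.3% of deficient ones, while for Slc16a3 the libraries separated in monocytes, where 10.5% of deficient and 2.43% of wild-type cells had 6 or more.

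Other neutrophil genes moved with Hcar2 in the neutrophil class. Of the 8 neutrophil markers 6 were lower and 0 higher in the deficient library, with a median log2 ratio of -0.75 and summed levels of 59814 CPM in deficient and 92515 CPM in wild-type cells. S100a9, a calcium-binding protein abundant in neutrophils, had 20071 and 33512 CPM, and Cxcr2, the chemokine receptor of mature neutrophils, had 210 and 493 CPM. Per 100 UMIs of S100a9 there were 4.60 Hcar2 UMIs in deficient and 5.88 in wild-type neutrophils, and per 100 UMIs of Cxcr2 there were 439 and 400. The part of these shared differences in the Hcar2 ratio was not tested. In neutrophils 22.4% of 3221 genes passed the threshold in either direction.

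The markers of the Ly6c-high monocytes themselves moved with Hcar2 in that class. Of their 10 markers 4 were lower and 0 higher in the deficient library, with a median log2 ratio of -0.47 and summed levels of 7007 CPM in deficient and 8544 CPM in wild-type cells. The 4 were Ccr2, the chemokine receptor these monocytes use to leave the bone marrow, with a log2 ratio of -0.67, Fn1 (fibronectin) with -0.73, Hp (haptoglobin) with -0.73 and F13a1 (a coagulation factor subunit) with -0.81. These shifts touch each result in the class, and their part in the Hcar2 ratio was not tested.

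Apart from Cxcl2, a chemokine gene that other myeloid cells also use, neutrophil markers were far lower in Ly6c-high monocytes than in neutrophils. Csf3r, with 94.1 CPM in deficient and 94.9 CPM in wild-type monocytes, lay above Hcar2 there. There were 154 Hcar2 UMIs per 100 UMIs of S100a9 in deficient and 404 in wild-type monocytes. S100a9 itself had 22.5 CPM in deficient and 20.8 CPM in wild-type monocytes, and Cxcr2 had 1 UMI in each. Retnlg, another neutrophil marker, had 1.64 CPM in deficient and 7.19 CPM in wild-type monocytes, from 9 and 19 UMIs. The 8 markers summed to 8579 CPM in deficient and 12509 CPM in wild-type monocytes, with none at 0, and Cxcl2 alone had 8347 and 12319 CPM. Retnlg and the sum, nearly all of it Cxcl2, were thus lower in the deficient library, as Hcar2 was. S100a9 and Csf3r were close between the libraries. S100a8 went the other way, with 17.4 CPM in deficient and 10.6 CPM in wild-type monocytes. The part of these genes in the Hcar2 result was not tested. Within the largest graph cluster of these monocytes, Hcar2 had 29.0 CPM in 529 deficient cells and 90.04 CPM in 179 wild-type cells, a log2 ratio of -1.63 (-1.99 to -1.28). S100a9 had 5.34 CPM in deficient and 81.8 CPM in wild-type Ly6c-low monocytes, from 2 and 28 UMIs. Csf3r, another marker, went the other way there, with 98.9 and 64.3 CPM. In the cDC2 class S100a9 had 6.62 and 12.6 CPM and Retnlg 0.54 and 2.55 CPM. Cxcr2 there had 1.08 and 1.09 CPM and Cxcl2 1240 and 997 CPM. Over all kept cells Hcar2 had 21.6 CPM in deficient and 118 CPM in wild-type cells. The part of these values in the Hcar2 ratios was not tested.

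A single cell can set a low level. In the cDC1 class Hcar2 had 12 UMIs in 510 deficient and 27 UMIs in 146 wild-type cells, and 19 of the 27 came from 1 cell. No call was made there, as the sum was under 50 UMIs.

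Of the 9 classes, Ffar2 was nearly absent from monocytes and macrophages. It was found at a low level in the cDC2 class, mature dendritic cells and neutrophils. Ly6c-high monocytes and macrophages together had 15 Ffar2 UMIs in 1347 deficient and 3 UMIs in 495 wild-type cells, too few for a call. The cDC2 class had 8.51 CPM (6.54 to 10.9) in deficient and 16.0 CPM (12.9 to 19.7) in wild-type cells, mature dendritic cells had 10.7 and 9.59 CPM, and neutrophils had 17.8 and 18.0 CPM. The neutrophil values rest on 10 and 19 UMIs. The cDC1 class had 2.30 CPM in deficient and 2.37 CPM in wild-type cells, from 20 and 7 UMIs, close to macrophages at 2.10 and 1.01 CPM. Cells without a class held 114 deficient and 79 wild-type Ffar2 UMIs, or 8.95 and 15.2 CPM.

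Ffar2 was lower in the deficient library in the cDC2 class, the only class where it was measured. The log2 ratio was -0.91 (-1.40 to -0.43), from 63 UMIs in 591 deficient and 88 UMIs in 355 wild-type cells, and 6.43% of deficient and 15.5% of wild-type cells carried a UMI. Of all genes 4.14% were called lower in this class.

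Within the cDC2 class the receptor sat mostly in cells with a UMI of Itgae, which encodes CD103, an integrin of gut dendritic cells (cDC1 carry it too) and 1 of the markers of the gate. Cells with an Itgae UMI had 20.7 CPM of Ffar2 in the deficient library, against 3.76 CPM in cells without one, a log2 ratio of 2.46 (1.66 to 3.30). The same 2 sets had 28.6 and 9.06 CPM in the wild-type library, a log2 ratio of 1.66 (1.01 to 2.33). This split was chosen after the values were seen. The median depth was 14317 UMIs in deficient cells with and 11309 UMIs in those without an Itgae UMI, and 18344 and 13534 UMIs in wild-type ones. Between libraries, Itgae-positive cells had a log2 ratio of -0.47 (-1.08 to 0.13) and Itgae-negative cells one of -1.27 (-2.15 to -0.42). Itgae-positive cells made up 136 of 591 deficient and 106 of 355 wild-type cells of the class.

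Of the 9 classes, Gpr35 was highest in monocytes and neutrophils. Ly6c-low monocytes had 144 CPM (108 to 188) in the deficient and 108 CPM (76.1 to 149) in the wild-type library, Ly6c-high monocytes had 119 CPM (110 to 129) and 76.4 CPM (66.2 to 87.7), and neutrophils had 107 and 107 CPM. Within a library these 3 classes did not separate beyond their intervals, except that wild-type neutrophils (88.5 to 129 CPM) lay above wild-type Ly6c-high monocytes. Macrophages followed with 39.5 and 37.97 CPM and the cDC2 class with 40.5 and 29.1 CPM. Eosinophils, too few in the deficient library to compare, had 145 CPM (88.7 to 224) in 98 wild-type cells, which overlaps neutrophils and Ly6c-low monocytes.

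Gpr35 was higher in the deficient library in Ly6c-high monocytes, with a log2 ratio of 0.64 (0.41 to 0.87) from 655 and 202 UMIs. A UMI was present in 53.3% of deficient and 42.0% of wild-type cells. It was also higher in mature dendritic cells, at 22.8 CPM in deficient and 8.63 CPM in wild-type cells and a log2 ratio of 1.40 (0.41 to 2.58), although the wild-type value rests on 9 UMIs. The shares of genes called higher were 5.79% in Ly6c-high monocytes and 11.3% in mature dendritic cells. In 5 other classes the gene was measured and not called, among them macrophages with a log2 ratio of 0.06 (-0.32 to 0.45). The call in Ly6c-high monocytes fell short of 1.5-fold within their largest cluster, at 119 CPM in deficient and 87.8 CPM in wild-type cells and a log2 ratio of 0.44 (0.17 to 0.70). It also fell short with classes taken from graph clusters, where the log2 ratio was 0.49 (0.27 to 0.71). T cells had 30 UMIs in 273 deficient cells and 1 UMI in 86 wild-type cells, under the 50 UMIs needed for a call.

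Gpr84 was found in neutrophils, macrophages and Ly6c-high monocytes. Macrophages had 40.6 CPM (35.7 to 45.9) in deficient and 40.5 CPM (32.1 to 50.4) in wild-type cells, a log2 ratio of 0.00 (-0.37 to 0.38). Ly6c-high monocytes had 24.7 and 20.8 CPM, and the cDC2 class 5.94 and 6.56 CPM. The macrophage level was thus close between the libraries.

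Neutrophils were the exception. Gpr84 had 97.9 CPM (73.8 to 127) in deficient and 37.0 CPM (26.3 to 50.6) in wild-type neutrophils, from 55 UMIs in 30 positive cells and 39 UMIs in 31 positive cells. The log2 ratio of 1.40 (0.78 to 2.03) was called higher, where 14.1% of genes were. In the same cells Hcar2 and 6 of 8 neutrophil markers were lower, so the pair of receptors went opposite ways within 1 class. Thinned to 1000 UMIs, 10.8% (6.39% to 16.7%) of deficient and 4.04% (2.10% to 6.95%) of wild-type neutrophils carried a Gpr84 UMI, and these intervals overlap. In the largest neutrophil cluster the log2 ratio was 1.56 (0.94 to 2.19).

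Of the 9 classes, Slc16a3 was highest in neutrophils and monocytes. Neutrophils had 630 CPM (566 to 700) in the deficient and 671 CPM (622 to 722) in the wild-type library, and Ly6c-low monocytes had 481 CPM (413 to 557) and 424 CPM (357 to 498). Ly6c-high monocytes had 284 CPM (270 to 298) and 148 CPM (133 to 163), and macrophages 48.5 CPM (43.2 to 54.3) and 26.8 CPM (20.1 to 35.1). These 4 classes kept this order in both libraries, with no overlap of neighbouring intervals. Dendritic cells and T cells had between 8.46 and 39.7 CPM. The 98 wild-type eosinophils had 290 CPM (207 to 395), above wild-type Ly6c-high monocytes.

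Slc16a3 was higher in the deficient library in 5 of the 8 classes where it was measured, and lower in 0. The log2 ratios were 0.94 (0.78 to 1.11) in Ly6c-high monocytes, 0.85 (0.43 to 1.30) in macrophages, 0.65 (0.34 to 0.96) in the cDC2 class, 0.76 (0.14 to 1.45) in the cDC1 class and 1.12 (0.43 to 1.90) in mature dendritic cells. The shares of genes called higher were 5.79%, 6.45%, 4.57%, 3.77% and 11.3% in the same order. The 2 classes with the highest levels did not show it: neutrophils had a log2 ratio of -0.09 (-0.28 to 0.10) and Ly6c-low monocytes one of 0.18 (-0.14 to 0.51). The wild-type values rest on 25 UMIs in the cDC1 class and 19 UMIs in mature dendritic cells. B cells were not among the 8, as their UMIs were too few for a call. They had 26 UMIs, or 10.8 CPM, in 565 deficient and 0 UMIs in 85 wild-type cells. The cDC1 levels, 14.4 CPM in deficient and 8.46 CPM in wild-type cells, lay near that deficient B cell level.

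In Ly6c-high monocytes the share of cells with the transporter was higher too. A Slc16a3 UMI was found in 70.9% of deficient and 58.0% of wild-type cells, although the deficient cells were shallower, and the median was 1 UMI per cell in both. Thinned to 1000 UMIs, the shares were 23.9% (20.8% to 27.2%) and 14.5% (10.6% to 19.1%). In the largest cluster of these monocytes the levels were 320 and 162 CPM, a log2 ratio of 0.98 (0.80 to 1.17). In macrophages the log2 ratio was 0.41, under 1.5-fold, when every cell was weighted equally.

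**Figure D3:**
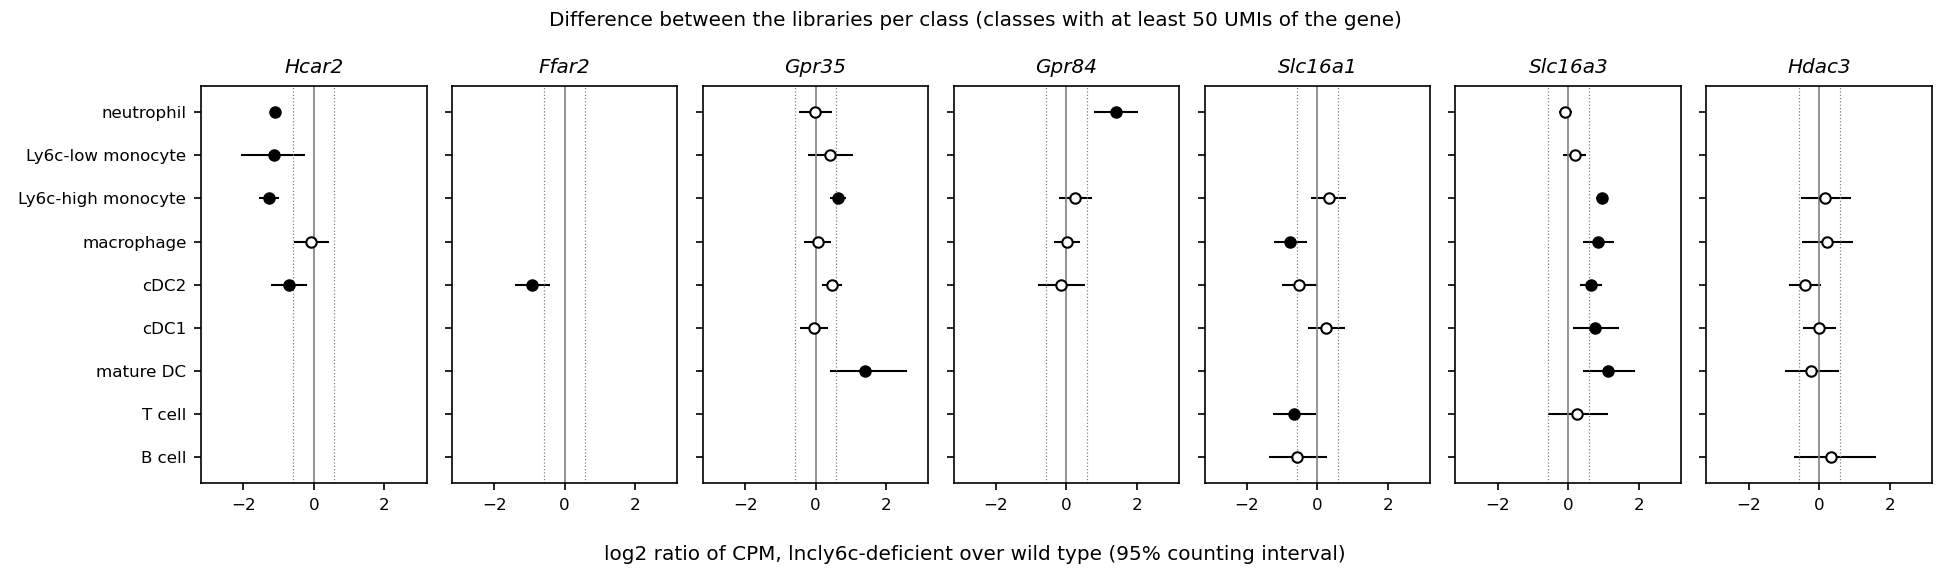
Log2 ratios of CPM, lncly6c-deficient over wild type (horizontal axis), for each gene and class with at least 50 UMIs over both libraries. Points are the ratios, bars are 95% counting intervals, filled points are called higher or lower and dotted lines mark 1.5-fold. Hcar2 lies left of 0 in 5 of 5 classes and is called in 4, Slc16a3 is called higher in 5 of 8, and Hdac3 is called in none.

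Slc16a1 was spread differently. T cells had the highest level of the 9 classes, at 39.8 CPM (31.3 to 50.01) in deficient and 62.8 CPM (43.5 to 87.8) in wild-type cells, followed by B cells with 28.7 and 43.2 CPM. Macrophages had 18.4 CPM (15.2 to 22.1) and 31.4 CPM (24.1 to 40.2) and Ly6c-high monocytes 23.1 and 18.5 CPM. Neutrophils had 5 UMIs in 202 deficient and 6 UMIs in 333 wild-type cells. T cells and B cells overlapped in both libraries.

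Slc16a1 was lower in the deficient library in T cells, with a log2 ratio of -0.66 (-1.26 to -0.03), and in macrophages, with one of -0.77 (-1.23 to -0.30). Of all genes 6.85% and 4.55% were called lower in these classes. The T cell call was not rerun under other settings, and the macrophage call did not hold in every setting. When every cell was weighted equally the log2 ratio was -0.50, under 1.5-fold, and 9 of the 62 wild-type UMIs came from 1 cell. The largest cluster of the class held 375 deficient and 133 wild-type cells. Slc16a1 had 19.8 and 18.7 CPM there, a log2 ratio of 0.08 (-0.65 to 0.86). That interval overlaps the one of the whole class.

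Epithelial cells, which use butyrate as fuel, were rare in these preparations, with 24 deficient and 21 wild-type cells, so their values are descriptions. Of these, 20 deficient and 11 wild-type cells also had at least 3 markers of a class from another lineage. Slc16a1 had 112 CPM (87.7 to 142) in deficient and 58.8 CPM (34.8 to 92.9) in wild-type epithelial cells, with 31.0% and 33.3% of the UMIs in 1 cell each. Slc5a8, the sodium-coupled monocarboxylate carrier of colonocytes, had 217 and 68.6 CPM there and 0 UMIs in Ly6c-high monocytes, macrophages, neutrophils and cDC1 of both libraries. Ffar2 had 2 UMIs in deficient and 22 UMIs in wild-type epithelial cells, 7 of them in 1 cell. Without the mitochondrial limit, Slc16a1 had 113 CPM in 30 deficient and 80.6 CPM in 29 wild-type epithelial cells.

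Hdac3 was low throughout. It lay between 5.34 and 25.8 CPM in the 9 classes of both libraries, highest in B cells with 25.8 CPM (19.8 to 33.1) in deficient and 20.3 CPM (8.77 to 40.0) in wild-type cells, while mature dendritic cells had 17.2 CPM (13.1 to 22.1) and 20.1 CPM (12.5 to 30.8) and the cDC1 class 18.3 and 18.3 CPM. Classes did separate in the deficient library, where B cells and the cDC1 class (15.5 to 21.3 CPM) lay above Ly6c-high monocytes, at 11.1 CPM (8.48 to 14.2). The gene was called in none of the 6 classes where it was measured, B cells included, where 12.8% of genes passed in either direction. The log2 ratio was 0.00 (-0.45 to 0.47) in the cDC1 class and -0.41 (-0.87 to 0.04) in the cDC2 class. In monocytes and macrophages, with 141 and 48 UMIs, it was 0.22 (-0.27 to 0.72), so a difference of 1.5-fold upward could not be detected or dismissed at this depth.

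Ly6c-high monocytes enter the colon wall from blood and give rise to its macrophages. Set side by side within each library, macrophages had lower Slc16a3, Gpr35 and Hcar2 and higher Gpr84 than Ly6c-high monocytes. For Slc16a3 the log2 ratio, macrophage over monocyte, was -2.55 (-2.73 to -2.37) in the deficient and -2.46 (-2.90 to -2.04) in the wild-type library. For Gpr35 it was -1.59 (-1.81 to -1.38) and -1.01 (-1.41 to -0.62), and for Gpr84 0.72 (0.41 to 1.03) and 0.96 (0.45 to 1.48). Of all genes 11.7% in the deficient and 17.4% in the wild-type library were lower in macrophages, and 19.3% and 16.7% were higher.

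Hcar2 showed the widest gap between the libraries in this step. Its log2 ratio, macrophage over monocyte, was -0.63 (-0.95 to -0.30) in the deficient and -1.82 (-2.31 to -1.36) in the wild-type library, since the monocytes differed and the macrophages did not pass the threshold. Slc16a1 was higher in wild-type macrophages, with a log2 ratio of 0.76 (0.20 to 1.33), and had one of -0.32 (-0.70 to 0.05) in the deficient library.

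Ly6c-low monocytes, the patrolling form that depends on Nr4a1, had more Slc16a3 than Ly6c-high monocytes. The log2 ratio, Ly6c-low over Ly6c-high, was 0.76 (0.53 to 0.98) in the deficient and 1.52 (1.24 to 1.80) in the wild-type library. Of all genes 8.16% and 12.1% were higher in this comparison, and 7.63% and 13.1% lower. Slc16a1 had 1 UMI in 58 deficient Ly6c-low monocytes and was called lower than in deficient Ly6c-high monocytes. It had 7 UMIs in 53 wild-type ones, with no call. Gpr84 had 5 UMIs in deficient and 0 UMIs in wild-type Ly6c-low monocytes, whose interval of 0 to 10.8 CPM lies below the 20.8 CPM (15.7 to 27.1) of wild-type Ly6c-high monocytes.

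**Figure D4:**
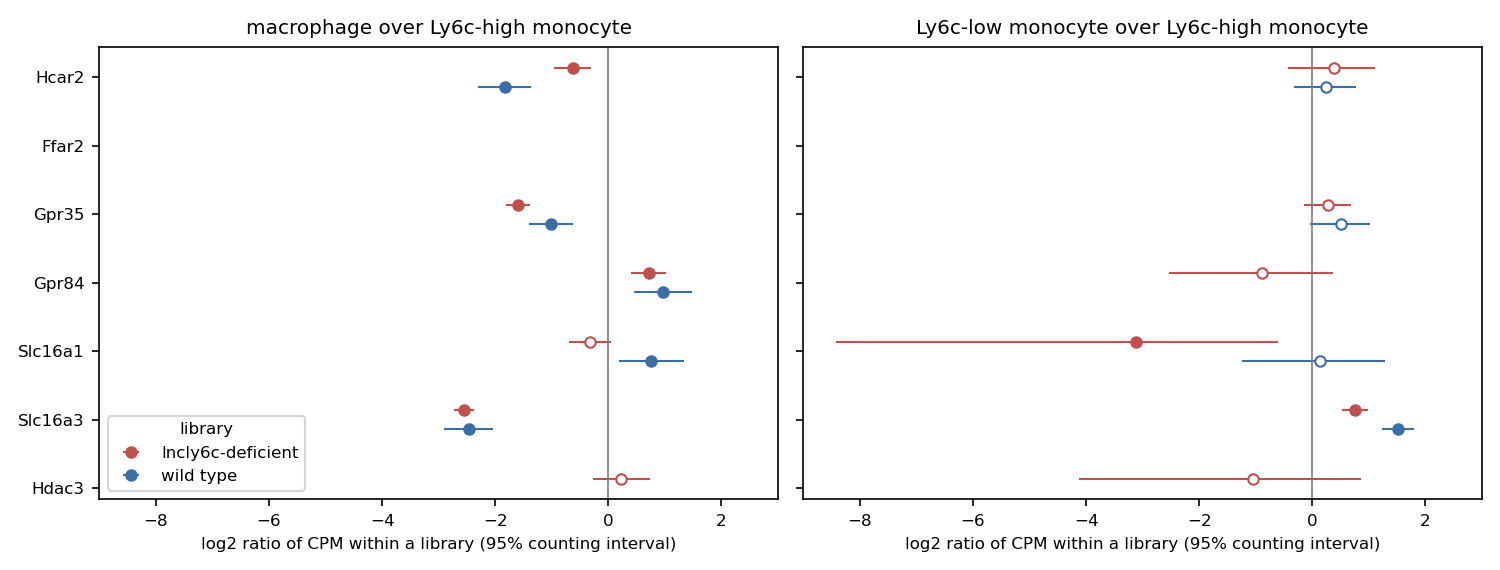
Log2 ratios of CPM (horizontal axis) within each library, for macrophages over Ly6c-high monocytes (left panel) and Ly6c-low over Ly6c-high monocytes (right panel), in the deficient (red, upper) and wild-type (blue, lower) library. Bars are 95% counting intervals, filled points are past 1.5-fold with an interval that excludes 0, and genes under 50 UMIs or with a count of 0 are left out. Slc16a3 lies at -2.55 and -2.46 in macrophages and at 0.76 and 1.52 in Ly6c-low monocytes.

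With Ly6c-high monocytes and macrophages summed, 2 of the 6 measured genes passed the threshold, where 11.2% of 9340 genes did (6.16% higher and 5.03% lower). Hcar2 had 28.2 CPM in deficient and 58.2 CPM in wild-type cells, a log2 ratio of -1.04 (-1.28 to -0.81). Slc16a3 had 159 and 95.9 CPM, a log2 ratio of 0.73 (0.58 to 0.88). The other 4 had log2 ratios of 0.36 (0.16 to 0.56) for Gpr35, 0.18 (-0.11 to 0.47) for Gpr84, -0.22 (-0.55 to 0.12) for Slc16a1 and 0.22 for Hdac3.

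The rest of the pathway was read in the same summed cells from 7 lists of 70 genes, of which 45 were measured and 2, or 4.44%, were called, against 11.2% of all genes. Of 10 other metabolite receptors 6 were measured, with a median log2 ratio of 0.34 beside 0.01 over all genes, and 2 were higher in the deficient library. P2ry14, the receptor for UDP-glucose, had 15.8 CPM in deficient and 9.09 CPM in wild-type cells, and Gpr183, the oxysterol receptor, had 118 and 77.7 CPM. Gpr132, a receptor for lactate and oxidized lipids, had a log2 ratio of 0.36 (0.27 to 0.46) and Ahr, the receptor for tryptophan metabolites, one of 0.31 (0.21 to 0.42), neither past 1.5-fold.

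Of 5 other receptors for fatty and hydroxycarboxylic acids of any chain length none reached 50 UMIs: Ffar3, Hcar1 and Olfr78 had 0 UMIs in these cells, while Ffar1 had 10 and 1 and Ffar4 12 and 2. Ffar4, a receptor for long-chain fatty acids, was instead present in the cDC1 class at 21.8 CPM (18.8 to 25.2) in deficient and 21.7 CPM (16.7 to 27.7) in wild-type cells. Hcar1, the lactate receptor, had 62 UMIs in 276 deficient fibroblasts, or 27.8 CPM, and 1 UMI in 21 wild-type fibroblasts. Of these fibroblasts 242 deficient and 20 wild-type cells also had at least 3 markers of a class from another lineage.

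None of the measured partners of the carriers was called. Among 16 other monocarboxylate transporters and chaperones 5 were measured and 0 were called, with a median log2 ratio of -0.05. Bsg (basigin), the chaperone that brings SLC16A1 and SLC16A3 to the cell surface, had 138 CPM in deficient and 124 CPM in wild-type cells, a log2 ratio of 0.16 (0.02 to 0.30). Of 15 genes of lactate and short-chain fatty acid metabolism 14 were measured and 0 were called, with a median of -0.08. Ldha, which makes lactate, had 228 and 198 CPM, a log2 ratio of 0.20 (0.09 to 0.31).

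Signalling and corepressor partners were also without a call. This held for 8 measured of 9 receptor-coupling genes with a median log2 ratio of 0.10, for 7 of 10 other histone deacetylases with a median of -0.05, and for 5 of 5 subunits of the Hdac3 corepressor complex with a median of -0.01. Gnai2, the main inhibitory G protein subunit of leukocytes, had 689.95 CPM in deficient and 713 CPM in wild-type cells, and its interval on the log2 scale ran from -0.11 to 0.01.

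Across 9 classes in 2 libraries, 18 points that share their libraries and differ in depth, some genes followed the members closely on a log2 (CPM + 10) scale. Hcar2 was most like Tlr6, a sensor of bacterial lipopeptides (Pearson r = 0.98), Vnn3 (0.97) and Acod1 (0.96), the itaconate-making enzyme. Slc16a3 was most like Gsr, glutathione reductase (0.97), Nod1, a sensor of bacterial cell wall (0.96), and Trem1 (0.96). Gpr35 was most like Lrrc25 (0.97), Gsap (0.96) and Stk40 (0.96). Gpr84 was most like Clec5a (0.92), Cxcl3 (0.91) and Pla2g15 (0.90).

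The remaining members had company about as close as that of Gpr84, or looser. Slc16a1 was most like Ormdl3 (0.92), G3bp2 (0.91) and Tacc1 (0.90), Hdac3 most like Orc2 (0.88), Nolc1 (0.87) and Gps1 (0.86), and Ffar2 most like Mapk13 (0.87), Lmnb1 (0.85) and Pla1a (0.85). Among the members themselves Gpr35 and Slc16a3 had the closest pattern (0.89), followed by Hcar2 and Slc16a3 (0.84), and Gpr35 and Hdac3 the most opposite (-0.75). These correlations over 12005 genes are descriptions of classes and carry no test.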

How the data were processed

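Whole cells of the colonic lamina propria were profiled in 1 lncly6c-deficient and 1 wild-type library, grouped by genotype label. The deposited values are raw UMI counts per gene and barcode. The authors made them with Cell Ranger (software version 3.0.2 per the file headers) and STAR 2.5.1b on mm10, per the submitters' processing notes. Introns, multimapping reads and doublets were handled by the authors' pipeline in a way not given in the sources used here, and no doublet caller was run here.

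Each marker's log-scaled count (per 10000 UMIs) was divided by its 99th percentile plus 0.5, limited to 1 and averaged per type over 21 marker sets. A cell took its top type with at least 3 markers detected and a margin of at least 0.05 over the next; 772 deficient and 280 wild-type gated cells lay within a margin of 0.1. This scoring rule was set after the data were seen, and the members and lists were chosen with earlier results of these data known. Counts were summed per class and library, with exact Poisson, Clopper-Pearson and conditional binomial 95% intervals. These cover counting error only. Named genes were all members in every class, list genes past 1.5-fold in the summed monocytes and macrophages (up to 3 a side) and the 3 genes most like each member. List genes described without a call were picked afterwards for their role in the pathway. Graph clusters (scanpy 1.11.5, leidenalg 0.10.2, 2000 genes, 30 components) served as an alternative. The interval code was tested on simulated data. Other tools were Python 3.11.15, numpy 2.4.6, pandas 2.3.3, scipy 1.17.1 and matplotlib 3.10.9.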

Additional observations from a re-analysis of the deposited data

How the results depend on the processing

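In the summed monocytes and macrophages, 9 alternatives were run for each member: no mitochondrial limit, a limit of 10%, CPM without mitochondrial, ribosomal protein and immunoglobulin genes, median-of-ratios size factors, a mean over cells, a stricter gate of 5 markers, removal of cells with markers of a second class, equal weights for both classes, and classes from graph clusters. Second-class cells had at least 3 markers of a class from another lineage, with monocytes, macrophages and dendritic cells taken as 1 lineage. They were 230 of 715 deficient and 72 of 288 wild-type Ly6c-high monocytes. Among macrophages they were 280 of 632 deficient and 65 of 207 wild-type cells. Hcar2 stayed between -1.13 and -0.91 and Slc16a3 between 0.67 and 0.93. Of 71 such values, counts of genes included, 65 stayed within the main interval or within 1.5 times the main count. Those that did not were Ffar2 under graph clusters (-0.995, few UMIs), Gpr35 as a mean over cells (0.59) and without second-class cells (0.56), Gpr84 as a mean over cells (-0.29), and Slc16a3 without second-class cells (0.91) and with equal weights (0.93). The number of genes past 1.5-fold was 1045, and between 820 and 1064 under the listed alternatives where it was counted. Without the minimum of 50 UMIs per gene, a further setting, it was 1419. In neutrophils, Hcar2 had -0.69 without second-class cells. Calls in T cells, Ly6c-low monocytes and the dendritic cell classes were not rerun under these alternatives. In the cDC2 class 238 of 591 deficient and 133 of 355 wild-type cells lay within a gate margin of 0.1. Limiting each class to its largest cluster, an alternative added after the data were seen, turned the macrophage ratio of Slc16a1 to 0.080. The main Slc16a1 value comes from all clusters of the class, and the causes of these changes were not tested. No paired analysis was possible because each group is 1 library. Depth limits Ffar2 outside the cDC2 class, Hdac3, and every class under 50 cells.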

Other observations

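Members were also seen in classes too small to compare. Eosinophils, with 17 deficient and 98 wild-type cells, had 3 and 40 UMIs of Slc16a3, or 290 CPM (207 to 395) in the wild-type library, and 1 and 20 UMIs of Gpr35, or 145 CPM (88.7 to 224). Their median depths were 1149 and 1314 UMIs. NK or ILC1 cells, with 108 deficient and 39 wild-type cells, had 17 and 5 UMIs of Slc16a1, or 36.7 and 27.8 CPM, and 0 UMIs of Hcar2, Ffar2 and Gpr84 in both libraries. Fibroblasts, with 276 deficient and 21 wild-type cells, had 71 and 7 UMIs of Hdac3, or 31.8 CPM (24.8 to 40.1) and 28.5 CPM (11.5 to 58.8), and plasma cells had 11 and 1.

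In Ly6c-high monocytes taken alone, 1 of 41 measured list genes was called higher and 1 lower, or 4.88% in either direction. Of all genes 5.79% were called higher and 6.14% lower, and each of these shares counts 1 direction only. Rgs1, a regulator of G protein signalling, had 268 CPM in deficient and 164 CPM in wild-type cells, and Hadh, an enzyme of short-chain fatty acid oxidation, had 9.27 and 16.3 CPM. In macrophages alone 3 of 42, or 7.14%, were called, where 6.45% of all genes were higher and 4.55% lower. P2ry14 had 26.2 and 12.7 CPM, while Slc16a6 had 39.1 and 60.2 CPM and Hdac9 8.89 and 15.2 CPM. In neutrophils 3 of 21, or 14.3%, were called, against 22.4% of all genes. Ahr had 176 and 106 CPM, Bsg 83.7 and 51.3 CPM, and Hdac4 107 and 165 CPM. Each of these passed 1.5-fold with an interval that excludes 0, and the genes were named after their values were seen.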
